A study of Mus musculus with 18 samples.

Results

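The imprinted locus of Ube3a, Snhg14 and Snrpn on mouse chromosome 7 was examined in chromatin immunoprecipitation sequencing (ChIP-seq) peak lists from cerebral cortex. Its members are all peaks that overlap a window of 1.05 Mb, chr7:58850000-59900000 on build mm39, counted from 1. The window holds 407 of the 494083 peaks in the 15 lists. The window was chosen by the peaks measured in these same lists, so the peak numbers, densities and strengths below are descriptions and carry no test. The lists come from frozen cerebral cortex of 3 wild-type C57BL/6J females, 14 weeks old, called animals 5, 7 and 9. All groups share this genotype, strain, sex and age, and they differ only in the antibody. Each animal gave 1 library for each of 5 antibodies, against H3K27ac, H3K4me1, RNA polymerase II phosphorylated on serine 5 (PolII_S5P), MBD3 and TDG. The labels also list 3 input samples, which were not analysed here. Cortex is a mixture of neurons, glia and other cells, and the lists do not separate the maternal from the paternal copy of the locus.

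Ube3a encodes an E3 ubiquitin ligase that neurons express mainly from the maternal copy. Snhg14 is a long non-coding transcript, expressed from the paternal copy, that carries arrays of small nucleolar RNAs in its introns and ends antisense to Ube3a, where it silences the paternal Ube3a in neurons. Snrpn encodes a spliceosomal protein, is expressed from the paternal copy, and has at its main start the imprinting centre, which is methylated on the maternal copy. Loss of maternal UBE3A function in people causes Angelman syndrome, and loss of the paternal genes of this region causes Prader-Willi syndrome. In the RefSeq gene table, which is on the older build GRCm38.p6, 210 genes lie between Ube3a and Snurf, the gene that shares its first exons with Snrpn. Of these, 206 are small nucleolar RNA genes and 17 carry a Snord116 name. The Snhg14 model in that table spans 1177441 bp, more than the 1050001 bp of the window, so the window cannot hold all of it. No annotation of mm39 was used here, so peaks are given by position and are not assigned to an exon, an intron or a start site of these genes.

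The starts of the 3 genes differ in sequence, and the 250 bases before each start are printed to show it (RefSeq, GRCm38.p6, 5′ to 3′ on the strand of the gene). Capitals mark the CG dinucleotides, the bases that DNA methylation acts on in this locus. Ube3a lies on the plus strand, and Snhg14 and Snrpn on the minus strand.
Ube3a: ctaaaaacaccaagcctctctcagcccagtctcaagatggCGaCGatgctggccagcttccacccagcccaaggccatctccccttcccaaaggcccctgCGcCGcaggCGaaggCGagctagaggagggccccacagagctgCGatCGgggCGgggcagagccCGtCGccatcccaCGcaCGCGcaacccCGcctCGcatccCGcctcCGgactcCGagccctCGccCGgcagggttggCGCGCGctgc
Snrpn, start shared with Snurf: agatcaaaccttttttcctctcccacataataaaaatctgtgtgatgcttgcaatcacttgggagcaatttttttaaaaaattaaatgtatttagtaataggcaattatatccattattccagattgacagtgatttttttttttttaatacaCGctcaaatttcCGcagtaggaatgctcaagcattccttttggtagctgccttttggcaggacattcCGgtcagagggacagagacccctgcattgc
Snhg14, start shared with an upstream Snrpn transcript: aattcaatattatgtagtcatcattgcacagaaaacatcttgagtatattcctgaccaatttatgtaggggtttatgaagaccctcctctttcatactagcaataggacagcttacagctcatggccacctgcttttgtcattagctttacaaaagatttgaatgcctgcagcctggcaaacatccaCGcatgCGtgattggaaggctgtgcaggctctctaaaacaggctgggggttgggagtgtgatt
The Ube3a sequence holds 24 CG dinucleotides and has a GC content of 70.0%. The Snrpn sequence holds 3 at a GC content of 36.8%, and the Snhg14 sequence holds 2 at 43.2%. The median of the 32851 starts in the table is 6 CG dinucleotides and a GC content of 52.4%. Ube3a thus stands at percentile 88.0 of the table by its number of CG dinucleotides, Snrpn at 29 and Snhg14 at 18.8. These windows stop at the start site, so CG dinucleotides further into the transcript are not counted.

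The table gives Snrpn 4 starts in all. The Snurf start and the main Snrpn start are the same sequence (100% identity over the stored promoter). The 3 upstream Snrpn starts, of which 1 is also the start of Snhg14, are copies of each other with 76.7% to 79.8% identity, against 49.5% to 53.2% to the main start. Each of the 3 holds the motif GCATGCG, the core of the binding motif of NRF1, on both strands (reverse complement CGCATGC), and the 2 matches overlap each other. The motif was found in 992 of the 32851 starts (3.02%), and it was not found in the sequences of Ube3a or of the main Snrpn start. A match describes the letters of the window and is no evidence of binding.

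Polymerase peaks were numerous in the window, while the other antibodies gave few. PolII_S5P, the form of the enzyme enriched near transcription starts and early in transcription, had 51, 147 and 113 peaks there in animals 5, 7 and 9, a mean of 104 ± 48.7 (SD, n = 3). H3K27ac, a mark of active promoters and enhancers, had 10, 5 and 12 peaks (9 ± 3.61). H3K4me1, a mark found mainly at enhancers, had 12, 6 and 11 peaks (9.67 ± 3.21). MBD3, a subunit of the nucleosome remodelling and deacetylase complex NuRD, had 11, 16 and 6 peaks (11 ± 5). TDG, a DNA glycosylase that removes thymine from mismatches and oxidised forms of methylcytosine, had 2, 0 and 5 peaks. Every polymerase list had more peaks in the window than any list of another antibody, although the polymerase lists as a whole, with 4409, 19816 and 12691 peaks, were shorter than every H3K27ac, H3K4me1 and MBD3 list.

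Against the mean of the 2579 other windows of the same length, the window held 30.4, 19.4 and 23.3 times as many PolII_S5P peaks in animals 5, 7 and 9. Other windows averaged 1.68, 7.59 and 4.85 polymerase peaks. At least as many polymerase peaks as here stood in 2 other windows in animal 5 (0.0775% of 2579) and in 1 in each of animals 7 and 9 (0.0388% and 0.0388%). In all 3 animals a denser window was chr2:6300007-7350007, with 66, 215 and 164 polymerase peaks, and in animal 5 the window chr9:111300107-112350107 had 51 as well. The adjoining window below held 0, 2 and 2 polymerase peaks and the adjoining window above held 1, 2 and 3. The high number of polymerase peaks thus ended within the window on both sides.

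H3K27ac and MBD3 peaks were sparser here than on average. The H3K27ac ratio to the other windows was 0.386, 0.188 and 0.530, and 62.7%, 74% and 55.9% of other windows had at least as many peaks. For MBD3 the ratio was 0.495, 0.667 and 0.395, and 58.4%, 52.9% and 63.9% of other windows had at least as many. Both antibodies were thus below the mean in each animal, and more than 50% of the other windows held as many peaks or more. H3K4me1 had ratios of 0.920, 0.340 and 1.26, with 40%, 61.7% and 28.3% of other windows at or above it. Its position relative to the mean depended on the threshold, since with peaks of −log10 q of at least 5 alone the mean ratio was 2.34 in place of 0.841, and without animal 7 it was 1.09. The TDG ratio, 42.3, 0 and 13.7, rests on lists of 130, 256 and 957 peaks in all.

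**Figure D1:**
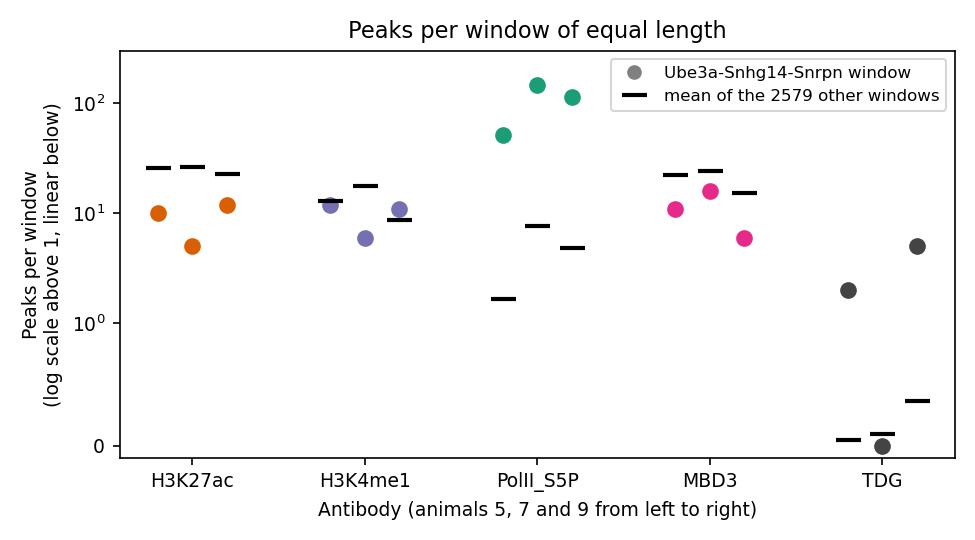
Peaks per window of 1.05 Mb for each antibody (x axis, animals 5, 7 and 9 from left to right) on a scale that is logarithmic above 1 and linear below; circles are this locus and bars are the mean of the 2579 other windows. The polymerase circles, at 51, 147 and 113, lie far above their bars, while all H3K27ac and MBD3 circles lie below theirs.

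The polymerase peaks fell into 7 blocks. Blocks were defined, after the positions had been seen, as runs of polymerase regions with no gap above 35 kb. Block 1 (chr7:58878068-58911301) had 1, 5 and 3 polymerase peaks in animals 5, 7 and 9. Block 2 (chr7:59004611-59265531) had 1, 56 and 38 peaks over 261 kb. Block 3 (chr7:59324157-59456219) had 28, 52 and 50 peaks over 132 kb, and block 4 (chr7:59507176-59554477) had 19, 28 and 19 over 47.3 kb. Block 5 (chr7:59597007-59608016) held 0, 2 and 1 peaks, block 6 (chr7:59645947-59655065) held 2, 3 and 1, and block 7 (chr7:59893553-59894349) held 0, 1 and 1. The first 2 gaps between blocks were 93.3 and 58.6 kb and the last was 238 kb. None of the 407 peaks of any antibody lay outside the 7 blocks. Blocks 3 and 4 held 19 or more peaks in every animal, whereas block 2 did so in animals 7 and 9 only, the animals with the longer polymerase lists. The part of list length in this was not tested beyond the lists of equal length given below.

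**Figure D2:**
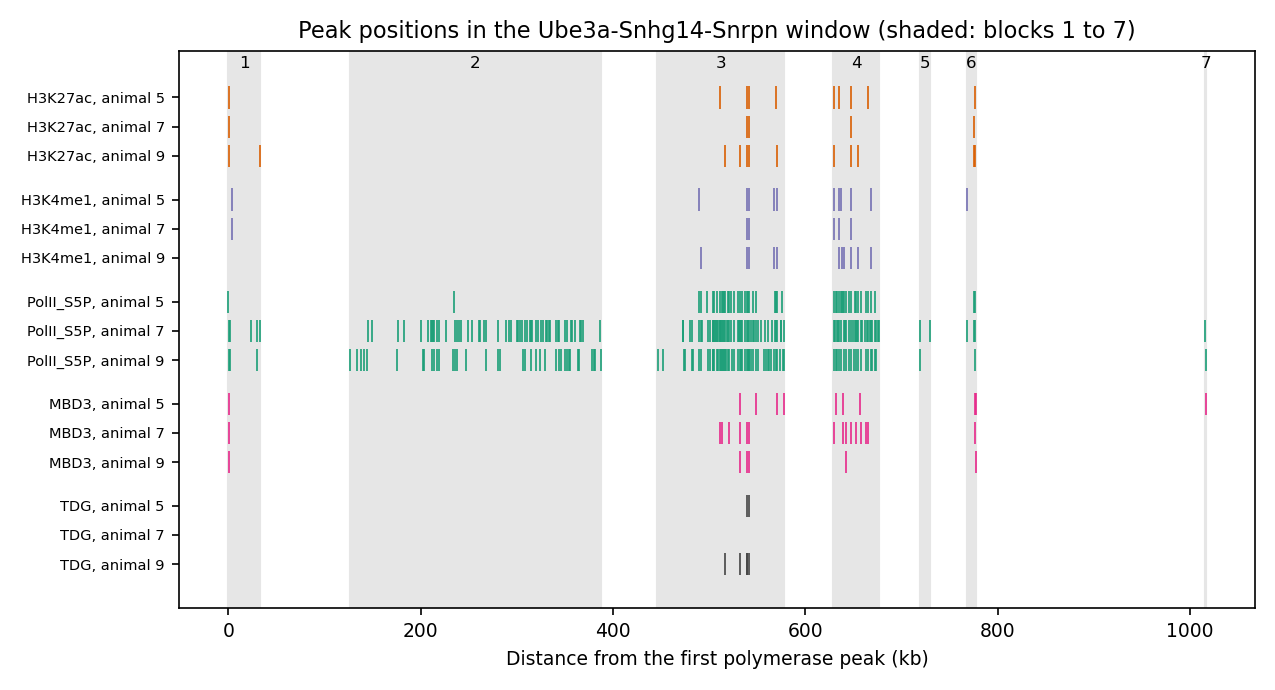
Midpoint of every peak in the window (1 tick each) by library, as distance in kb from the first polymerase peak; shading marks blocks 1 to 7. Block 2 holds polymerase ticks in animals 7 and 9 and 1 tick in animal 5, with no tick of another antibody, whereas blocks 3 and 4 hold ticks of several antibodies.

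Just inside the lower edge of the window the first peak was the H3K27ac peak of animal 7 that starts at chr7:58877397, 27.4 kb from the edge, with a fold enrichment of 7.99. Just outside it lay an H3K27ac peak of animal 9, 20.6 kb from the edge, at 3.88. The last peak inside the upper edge was an MBD3 peak of animal 5 ending 5.59 kb from it, at 4.16, and the next one outside was a polymerase peak of animal 9 at a distance of 141 kb, at 3.25. Fold enrichment here and below is the authors' value for each peak, and strength is given as the percentile of that value within the peak's own list, where 100 is the strongest.

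Merging overlapping peaks over the animals gave 185 polymerase regions. Of these, 43 had a peak in all 3 animals, 33 in 2 and 109 in 1. Block 3 held 25 of the regions shared by 3 animals and block 4 held 16, so 2 shared regions remained for the other blocks. Of the 29 regions of block 4, 16 were shared, against 25 of 65 in block 3 and 0 of 79 in block 2. H3K27ac gave 15 regions, 5 of them in all animals, H3K4me1 gave 16 with 4 in all, and MBD3 gave 22 with 3 in all. TDG gave 5 regions, 2 of them in 2 animals and none in all.

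The polymerase peaks of the window were of mixed strength. The median percentile of a polymerase peak was 77.6, 53.2 and 65.4 in animals 5, 7 and 9. Ranked by q in place of fold, it was 81.2, 38.6 and 50.1. Peaks above the 90th percentile of their list made up 19.6%, 15.6% and 25.7% of those in the window, and the best ranks were 54, 174 and 80. Block 4 had the highest median percentile among the 3 large blocks, at 82.6, 78 and 93.6. Block 3 followed at 60.8, 54.0 and 71.3, and block 2 had 30.7, 47.3 and 47.5. By fold the same order of blocks 4, 3 and 2 was seen in each animal, though block 2 rests on 1 peak in animal 5. Single peaks of the blocks overlapped widely. The median −log10 q was 13.2, 11.6 and 23.2 in block 4 and 14.9, 12.6 and 16.9 in block 3. By q, block 3 thus stood above block 4 in animals 5 and 7. In block 4, 17 of 19, 16 of 28 and 19 of 19 peaks lay above the median of their list.

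**Figure D3:**
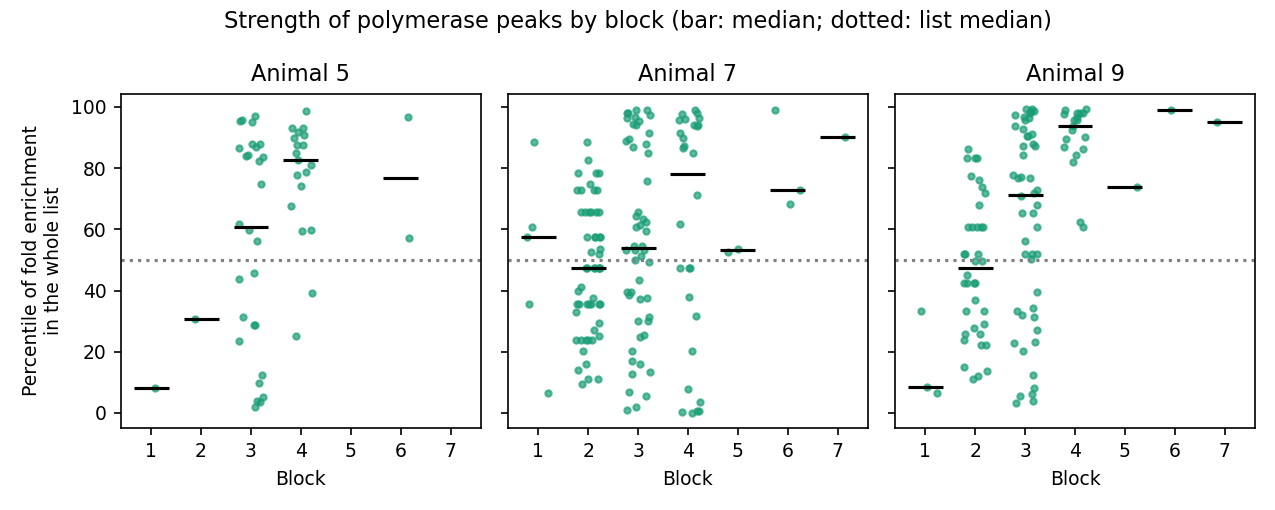
Percentile of fold enrichment of each polymerase peak within its whole list (y axis, 0 to 100) by block (x axis), 1 panel per animal; bars are block medians and the dotted line is the list median. Block 4 has medians of 82.6, 78 and 93.6, and the block 2 medians of 30.7 (1 peak), 47.3 and 47.5 lie below the dotted line.

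By mean rank of fold the strongest shared polymerase region, chr7:59507176-59508584, opens block 4. Its fold enrichments were 10.9, 12.2 and 10.8 in animals 5, 7 and 9, percentiles 98.8, 99.1 and 99.0, so the 3 animals lay close together. By −log10 q it had 39.6, 41.6 and 35.6, below the region chr7:59418976-59419950 of block 3 with 119, 150 and 136. On the region that opens block 4, H3K27ac peaks were present in animals 5 and 9, H3K4me1 peaks in animals 5 and 7 and an MBD3 peak in animal 7. Another 2 regions of block 4 ranked almost as high. The region chr7:59525166-59525790 had 6.69, 9.61 and 11.4, and chr7:59510252-59510670 had 6.71, 9.32 and 8.55. The first of these carried H3K27ac and H3K4me1 peaks in all 3 animals and an MBD3 peak in animal 7. The second carried no peak of another antibody in any animal.

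In block 3 the region chr7:59409750-59410211 had polymerase folds of 5.37, 11.8 and 12.5. It carried an MBD3 peak in all 3 animals, at 4.32, 6.70 and 7.53, and in animal 9 the strongest TDG peak of the window, at 6.07 (percentile 83.7). For polymerase and for MBD3, animal 5 was the lowest. The region chr7:59426916-59427234 had polymerase folds of 5.42, 9.58 and 10.0, with an MBD3 peak in animal 5 alone. In animal 5 the percentiles of the pair were 83.9 and 84.4, in animal 7 they were 99.0 and 98.0, and in animal 9 they were 99.4 and 98.7.

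By fold, the strongest H3K27ac and MBD3 peaks of the window in animals 5 and 7 stood at the 2 ends of the peak cluster. In animal 9 an inner H3K27ac peak in block 3, at 4.70, was above the upper end by fold, and the MBD3 peak of 7.53 in block 3 was above both ends. By −log10 q, an inner H3K27ac peak in block 3 was above the upper end in animal 5 too, at 56.4 against 35.7. In animal 7 it was below the upper end, at 42.9 against 45.1. The MBD3 peak of animal 9 in block 3, at 13.4 by −log10 q, was below the lower end, at 23.1. At the lower end, in block 1, the H3K27ac region chr7:58877397-58879742 had folds of 13.4, 7.99 and 5.20 in animals 5, 7 and 9, percentiles 99.4, 94.0 and 81.5. The MBD3 region chr7:58877824-58879611 on it had 17.2, 11.0 and 6.97, percentiles 97.1, 89.2 and 67.4. For both antibodies animal 5 was highest and animal 9 lowest, in fold and in percentile. The strongest polymerase peaks there had folds of 2.61, 4.38 and 2.59, percentiles 8.32, 60.6 and 8.40, low in animals 5 and 9 and above the list median in animal 7. No H3K4me1 peak overlapped this site, and the nearest H3K4me1 peak of animals 5 and 7 began above it, at chr7:58881849-58882246 in animal 5.

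At the upper end, in block 6, the H3K27ac region chr7:59652617-59655083 had folds of 6.61, 8.74 and 4.30, percentiles 88.3, 95.8 and 64.9. MBD3 at chr7:59653459-59655155 had 9.93, 11.5 and 5.96, percentiles 83.0, 90.5 and 55.1. For both antibodies animal 7 was highest and animal 9 lowest. Polymerase at chr7:59654158-59655065 was strong here, at 8.17, 11.5 and 10.7, percentiles 96.7, 98.9 and 99.0. Neither H3K4me1 nor TDG had a peak on the upper site in any animal. The 2 ends thus shared H3K27ac and MBD3 in every animal and differed in polymerase, whose percentiles did not overlap between them.

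The end sites also stood out by width. H3K27ac peaks at the lower end were 1945, 2346 and 1924 bp wide, and at the upper end 2467 and 2382 bp in animals 5 and 7, while animal 9 had 2 peaks of 917 and 401 bp. The median H3K27ac peak of the whole lists was 666, 630 and 569 bp wide. Between the ends, in blocks 3 and 4, H3K27ac peaks were 255 to 654 bp wide and their folds reached 4.79.

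At 11 sites the summits of at least 3 antibodies stood together, each within 150 bp of the next, a rule set after the positions had been seen. All 11 lay in blocks 3 and 4. Summits of 5 antibodies met at 2 sites, of 4 at 3 sites and of 3 at 6 sites. The fullest sites were in block 3, and each of them had a summit in 13 of the 15 lists. At the first the summits spanned 72 bp (chr7:59417282-59417354) and at the second 23 bp (chr7:59419681-59419704). Each had H3K27ac, H3K4me1 and polymerase in all 3 animals, MBD3 in animals 7 and 9, and TDG in animals 5 and 9.

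At the second of these sites polymerase had folds of 8.33, 11.9 and 9.25, and H3K4me1 had 4.12, 4.71 and 4.33, percentiles 92.3, 98.5 and 94.3. By −log10 q the H3K4me1 peaks, at 48.9, 74.2 and 56.4, stood at percentile 100 of their lists in each animal, after rounding. H3K27ac had 4.79, 4.58 and 3.58 (percentiles 72.6, 69.9 and 45.3). MBD3 had 3.78 and 3.93 in animals 7 and 9, at percentiles 14.9 and 18.3, and TDG had 3.68 and 3.76 in animals 5 and 9, at 12.3 and 24.5. At the first site polymerase had 7.6, 9.81 and 10.1, while H3K27ac (2.85, 3.15 and 4.70) and H3K4me1 (3.07, 3.12 and 2.89) were lower. The percentiles of H3K4me1 by fold were 52.4, 65.1 and 33.9 there, and 100, 100 and 99.8 by q. MBD3 at the first site had percentiles of 5.67 and 6.49 by fold and 29.9 and 14.6 by q in animals 7 and 9, and at the second site 54.4 and 54.2 by q. TDG at the first site had 9.23 and 14.6 by fold in animals 5 and 9. By q, TDG stood at 21.5 and 32.3 at the 2 sites in animal 5, and at 78.7 and 85.4 in animal 9. The H3K27ac percentiles at the first site were 23.8, 31.1 and 73.4 by fold and 75.9, 77 and 93.5 by q. At the second site they were 94, 92.1 and 89.8 by q. Polymerase thus ranked high at both sites in all animals. The other antibodies all ranked higher by q than by fold at both sites. Whether the input has signal at these sites was not tested.

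**Figure D4:**
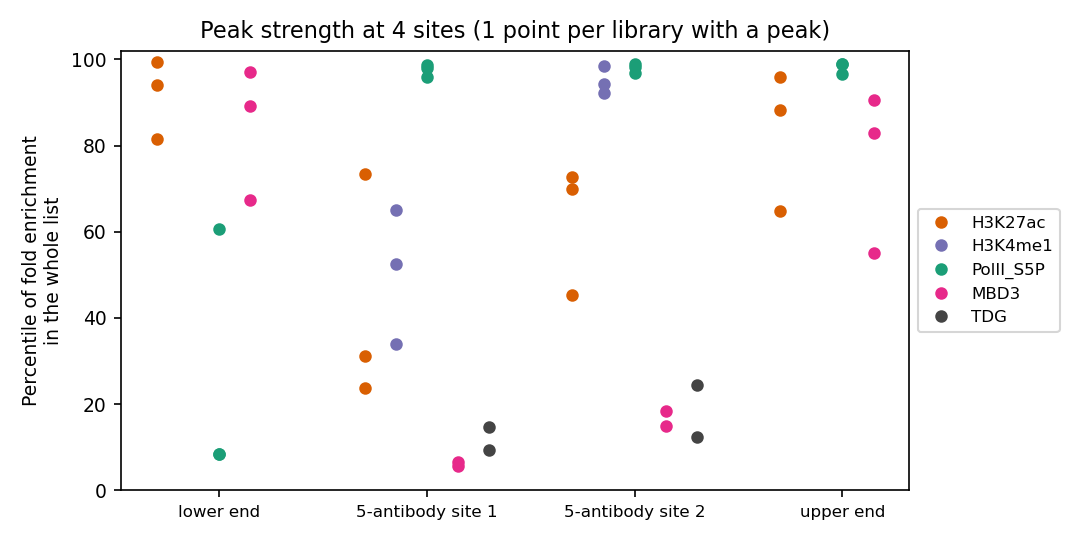
Percentile of fold enrichment within its list (y axis) of the strongest peak of each library at 4 sites, the acetylated lower and upper ends and the pair of sites with summits of 5 antibodies; each point is 1 library and colours are antibodies. In animals 5 and 7 H3K27ac is highest at the ends, all MBD3 points at the ends (55.1 or more) lie above those at the inner sites (18.3 or less), H3K4me1 and TDG points occur at the inner sites only, and polymerase is low at the lower end in animals 5 and 9.

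All TDG peaks of the window lay in block 3. In animal 5 these were the 2 peaks at the sites just described. Animal 9 had peaks at both sites, a peak next to the first at chr7:59416704-59416962 (3.29), and peaks at chr7:59394152-59394400 (4.45) and chr7:59409846-59410114 (6.07). Each TDG peak overlapped a polymerase peak of the same animal. Animal 7 had none.

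H3K4me1 was shared by all animals at 2 further regions, both in block 4. At chr7:59525269-59525748 its folds were 3.24, 3.43 and 3.36, at percentiles 62.0, 77.5 and 64.8, close together. At chr7:59512132-59512848 they were 3.75, 2.69 and 2.72, so animal 5 stood above the others. The H3K27ac region of block 4 present in all animals, chr7:59525428-59525758, lies on the first of these, with folds of 3.96, 3.54 and 3.78.

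Most polymerase peaks of the window stood without a peak of another antibody in the same animal. In the window 60.8%, 87.1% and 84.1% of polymerase peaks (31, 128 and 95 peaks) were free of any H3K27ac, H3K4me1, MBD3 or TDG peak, against 33.1%, 30.2% and 32.9% of the whole lists. H3K27ac peaks overlapped 21.6%, 4.76% and 9.73% of polymerase peaks in the window, and 60.9%, 61.2% and 59.7% in the whole lists. For MBD3 the shares were 13.7%, 11.6% and 6.19% in the window and 53.8%, 53.2% and 44.8% overall. For H3K4me1 they were 19.6%, 3.4% and 9.73% in the window and 11.1%, 16.9% and 10.9% overall. The window share was below that of the list in each animal for H3K27ac and MBD3, and on either side of it for H3K4me1. The 11, 7 and 11 polymerase peaks with H3K27ac had median percentiles of 89.7, 98.0 and 98.7, and those without had 70.8, 52.6 and 60.6.

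Seen from the other antibodies the relation was reversed, and most of their peaks lay on polymerase peaks. In the window 100%, 100% and 83.3% of H3K27ac peaks overlapped a polymerase peak of the same animal, where the whole lists had 3.81%, 16.3% and 12.4%. For H3K4me1 the values were 83.3%, 83.3% and 100% in the window and 1.37%, 6.72% and 5.82% overall. For MBD3 they were 63.6%, 100% and 100% in the window and 4.05%, 16.4% and 14.4% overall. These shares rest on 5 to 16 peaks per list, and polymerase peaks covered 2.16%, 6.72% and 5.22% of the window.

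Block 2 had no peak of H3K27ac, H3K4me1, MBD3 or TDG in any list. Its polymerase peaks were narrow, with median widths of 326 and 297 bp in animals 7 and 9, and folds ran from 2.89 to 6.13 in animal 7, with a median of 3.98, and from 2.71 to 5.51 in animal 9, with a median of 3.82. In percentiles of the list this was 9.41 to 88.6 and 11.1 to 86.2. The 56 peaks of animal 7 took 25 distinct fold values and the 38 of animal 9 took 23. The commonest values were 3.68 and 3.98 in animal 7, with 7 peaks each, and 4.20 in animal 9, with 5 peaks. Few were strong by q: with −log10 q of at least 5 alone, 0, 10 and 8 peaks remained, and when all polymerase lists were reduced to the length of the shortest, 1, 5 and 9.

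The summits of block 2 recurred at a regular distance in both animals. Periods from 1000 to 4000 bp were tried in steps of a base. The measure was the resultant length, which lies between 0 and 1, where 1 is perfect regularity. Irregular summits also give values above 0, and larger ones where peaks are fewer. Values from lists with unlike numbers of peaks are therefore not directly comparable. The best value is a maximum over 3001 trials and has no test here. In animal 7 the best period was 1868 bp with a resultant of 0.523, and in animal 9 it was 1873 bp with 0.731. The next best periods, outside 200 bp of these, gave 0.326 (1632 bp) and 0.366 (2437 bp). Of the 55 gaps between neighbouring summits in animal 7, 27 (49.1%) lay within 10% of 1 period from a whole multiple of it. In animal 9 it was 22 of 37 (59.5%). Of these, 17 in animal 7 and 10 in animal 9 spanned 1 period, and the others spanned 2 or more. By the same rule, at the best period of each list, the share was 11.8% to 18.4% in block 3 and 18.5% to 38.9% in block 4. Each period was chosen on these same summits, so the shares are no separate evidence of a repeat. The share to be found among gaps without a repeat was not computed.

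The phase of the repeat, taken over all peaks of each animal, was close in both animals. Many single peaks were not shared, but those that overlapped bring the phases together by construction. The phase of the unshared peaks alone was not computed, so whether it was close without the shared peaks was not tested. At a period of 1870.5 bp the phases differed by 81.3 bp. Of the 38 peaks of animal 9, 15 (39.5%) overlapped a peak of animal 7, and 16 of the 56 peaks of animal 7 (28.6%) overlapped 1 of animal 9. The median distance from a summit of animal 9 to that of the overlapping peak was 100 bp. The period rests on weak peaks, since with −log10 q of at least 5 animal 7 gave 1214 bp from 10 peaks and animal 9 gave 1874 bp from 8.

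Blocks 3 and 4 did not share this period. In block 4 the best period was 2543 bp in animal 5 (resultant 0.562) and 2531 bp in animal 9 (0.648), from 19 peaks each. Animal 7, with 28 peaks, had its best at 1122 bp (0.403) and only 0.149 at 2537 bp, the mean of the other two. The next best periods in block 4 were 1360 bp in animal 5 (0.469), 1364 bp in animal 7 (0.301) and 1275 bp in animal 9 (0.434). The 19 peaks of animal 5 each overlapped a peak of animal 7 and of animal 9, with median summit distances of 27 to 37 bp among the 3 pairs of animals. In block 3 the best periods were 1194, 2375 and 1015 bp, at resultants of 0.380, 0.282 and 0.261. The next best in animal 5, 1900 bp (0.347), was near the period of block 2 and almost as high as its best. The next best in animal 7, 1198 bp (0.269), was close to the best of animal 5, while animal 9 had 2692 bp (0.251) as its next best.

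**Figure D5:**
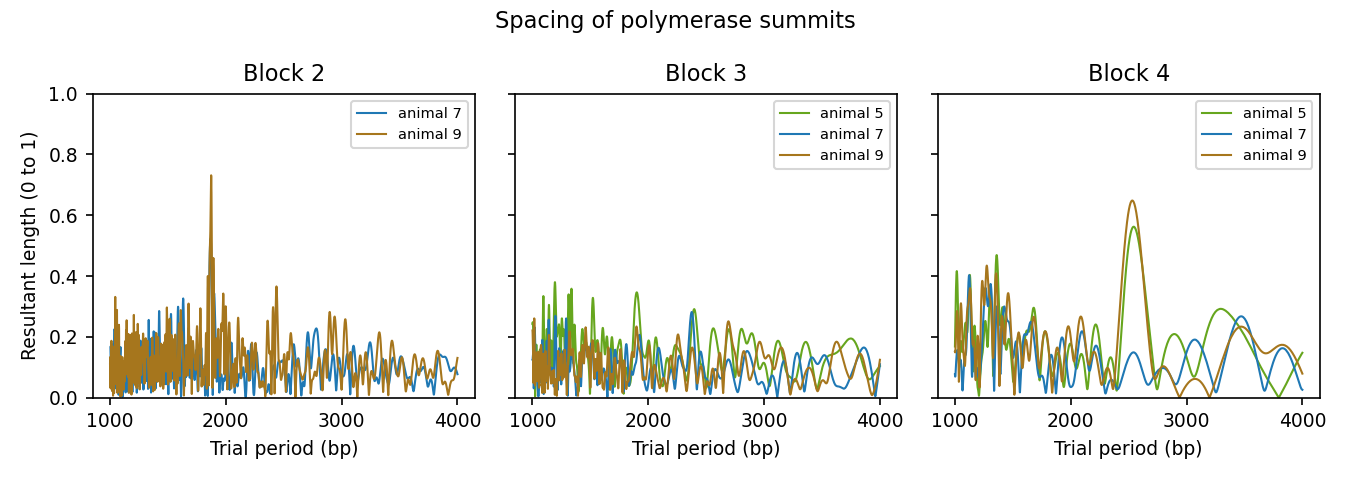
Resultant length of polymerase summits (y axis, 0 to 1) at each trial period from 1000 to 4000 bp (x axis) in blocks 2, 3 and 4; each line is 1 animal, and animal 5 is not drawn in block 2, where it had 1 peak. Block 2 has its maximum at 1868 and 1873 bp in animals 7 and 9, and block 4 at 2543 and 2531 bp in animals 5 and 9.

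Block 7, at the upper edge, consisted of 1 polymerase region with folds of 6.41 and 7.04 in animals 7 and 9 (percentiles 90.1 and 94.9). An MBD3 peak of animal 5, at 4.16, lay on the same place, and no H3K27ac peak did. Block 5 had only polymerase peaks, with a highest fold of 4.19 in animal 7 and 4.73 in animal 9.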

How the data were processed

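The members and lists were chosen with earlier results of these data known. Each of the 15 libraries has its own deposited narrowPeak list on build mm39. The submitters' processing notes name MACS2 2.2.7.1, Picard 2.18.29, SAMtools 1.16.1, Trim Galore 0.6.7 and bcl2fastq 2.20. The aligner and the MACS2 control were not given in the sources used here. For each peak the authors deposited a score, a fold enrichment (a ratio over background), −log10 p and q values and another number, the summit offset in bp. Read depth is unknown, so peak numbers cannot be told apart from depth or antibody efficiency. The labels tie each number to 1 animal, so replicates are separate animals.

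Peaks overlapping the window by at least 1 bp were kept, percentiles were taken within each list, and other windows of equal length were laid end to end on the chromosomes. Regions for naming were taken by strength rank among those shared by all animals, up to 12 for each antibody. For TDG, which had no shared region, the 5 strongest were taken, which were all it had. Others were chosen after their values were seen, as were the blocks, the sites of joint summits and the period scan. The planned lists of neighbouring and imprinted genes could not be placed without an mm39 annotation and were not run, and for the same reason the tissue label was not checked against marker genes. The code was tested on simulated lists. Alternatives were a −log10 q minimum of 5, ranking by q, lists of equal length, other overlap rules and leaving out each animal. Tables were computed in Python 3.11.15 with pandas 2.3.3 and numpy 2.4.6, and drawn with matplotlib 3.10.9.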

Additional observations from a re-analysis of the deposited data

Results flagged for a closer look

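The density of peaks in the window went opposite ways for different antibodies in every animal. The number of PolII_S5P peaks was on average 24.4 times the mean of the other windows and above it in 3 of 3 animals, while the number of H3K27ac peaks was 0.368 times that mean and below it in 3 of 3. The same contrast held for PolII_S5P, at 24.4, against MBD3, at 0.519. The window was chosen with these values known, and the difference was not tested.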

How the results depend on the processing

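Of 144 recomputed values, 124 stayed within the limit set for them, 18 moved further and 2 changed side. For counts of peaks and of shared regions the limit was 1.5 times. For other values it was the spread between animals. With −log10 q of at least 5, the mean number of peaks in the window was 61.3 for PolII_S5P and 6.67 for MBD3, the mean H3K4me1 density ratio changed side to 2.34, and the median strength percentile was 22.4 for H3K4me1 and 6.37 for TDG. The median gap was then 7460 bp in block 2 and 2427 bp in block 4. The mean best period of block 2 was 1544 bp, below that of all peaks. That mean joins unlike values, 1214 bp in animal 7 and 1874 bp in animal 9. In block 4 the mean over all 3 animals was 2122 bp against 2065 bp, but the animals disagreed under both (2543, 1309 and 2514 bp with the q minimum). Ranked by q, the median percentile was 88.7 for H3K4me1 and 53.9 for TDG. In lists of equal length the means were 49 polymerase, 5 MBD3 and 0.667 TDG peaks, and 28 polymerase regions were shared by all animals in place of 43. Gaps taken within each list had medians of 3218 bp in block 2 and 2064 bp in block 4, against 1914 and 1386 bp between merged summits. With each animal left out in turn, the gap ranged from 1920 to 3730 bp in block 2 and from 1347 to 2476 bp in block 4, the H3K4me1 density ratio from 0.63 to 1.09 and the mean number of TDG peaks from 1 to 3.5. The highest values of the first 3 came without animal 7, and the lowest TDG value without animal 9. Fewer peaks enter under the q minimum and equal lengths by construction, and for the other settings the cause was not tested. No paired analysis was possible because the results come from no test. Without depth or counts, a missing peak in 1 list cannot be told apart from a shallower library.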
